A study of Mus musculus with 7 samples.

Results

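The genes described here encode the proteasome, the large protease complex that degrades proteins tagged with ubiquitin. They were taken by symbol, as every gene whose name starts with Psma, Psmb, Psmc, Psmd, Psme, Psmf or Psmg followed by a digit. The rule found 47 genes, read by 51 probes, among 16462 named genes on the array. By role, 45 of the 47 are subunits, activators, an inhibitor or assembly chaperones of the proteasome. The other 2, Psmc3ip and Psme3ip1, share only the start of the symbol and encode partner proteins, so they were counted but are named apart. Psma3, Psmb3 and Psmg4 were looked for by symbol and matched no probe of the annotation used.

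Liver RNA of 7 mice on a chow diet was compared on 2-colour arrays, 1 mouse per array. The mice were 3 C3ar1-/- knockouts, numbered 2 to 4 in the labels, and 4 wild-type littermates, numbered 1 to 4. C3ar1 encodes the receptor for the complement fragment C3a. Every array carried the same reference, RNA pooled from the livers of 6 chow-fed wild-type mice, and the labels do not say whether the 4 wild types are among those 6. Strain, age and sex of the mice, the tissue range of the knockout and the deleted part of C3ar1 are not given in the sources used here. A value is the log ratio of 1 mouse and the pool for 1 gene, so it carries no absolute level. The liver label could therefore not be checked against the level of hepatocyte genes. Base 10 was read for the logarithm, and the likely direction is mouse over pool, which rests on the wording of the titles alone. If the direction were the opposite, every sign below would turn.

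The proteasome is built from a barrel and its caps. The 20S barrel has 2 outer rings of alpha subunits, which gate the entrance, and 2 inner rings of beta subunits. Only 3 kinds of beta subunit cut protein, namely beta1 (Psmb6), beta2 (Psmb7) and beta5 (Psmb5). The 19S cap binds ubiquitin chains, removes them, and unfolds the substrate with a ring of ATPases. Cells exposed to interferon, and most immune cells, replace the cutting subunits by Psmb9 at beta1, Psmb10 at beta2 and Psmb8 at beta5. This immunoproteasome favours peptides that fit MHC class I molecules. In the liver, hepatocytes carry mainly the constitutive form, while resident immune cells carry more of the immunoproteasome.

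Regulatory sequence near the start of 3 catalytic genes is shown because these genes fall under different known controls, interferon for Psmb9 and the proteasome recovery factor Nfe2l1 for Psmb5 and Psmb6. Sequences are RefSeq's on GRCm38.p6, with windows from 250 bases before to 50 bases after the gene start, and 39 of the 47 genes matched such a window. The first is the whole stretch of 225 bases between the starts of Psmb9 and the peptide transporter gene Tap1, which are read in opposite directions from it. It is given on the strand of Psmb9 (chr17:34187331-34187555, minus strand), with the GC box GGGCGG in capitals.
Psmb9: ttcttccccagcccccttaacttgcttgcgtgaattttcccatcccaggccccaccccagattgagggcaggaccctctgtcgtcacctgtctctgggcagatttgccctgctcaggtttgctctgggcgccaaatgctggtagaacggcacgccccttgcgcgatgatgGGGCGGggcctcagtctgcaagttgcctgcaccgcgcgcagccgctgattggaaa
The other pair, Psmb5 (chr14:54618015-54618075, minus strand) and Psmb6 (chr11:70525297-70525356, plus strand), hold matches to the antioxidant response element core TGACNNNGC in capitals, the letters that Nfe2l1 and Nfe2l2 recognise.
Psmb5: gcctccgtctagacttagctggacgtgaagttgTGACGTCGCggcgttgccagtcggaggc
Psmb6: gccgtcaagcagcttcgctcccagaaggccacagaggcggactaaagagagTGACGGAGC

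Counted on both strands, the antioxidant core lay in the windows of 6 of 39 proteasome genes, or 15.4%, against 3781 of all 27025 genes with a window, or 13.99%. Psmb7, the remaining constitutive catalytic gene, was not among these 6, which can also mean that it matched no window. The core of the interferon-stimulated response element lay in 3 of 39 (7.69%, and 3.99% of all genes), and these letters were not in the window of Psmb9. The GC box, a motif added after the sequences were seen, lay in 23 of 39 (59.0%, and 38.2% of all genes). These are matches of letters, not sites shown to be bound.

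No proteasome gene passed the comparison of knockout with wild-type livers. The test was limma on 22212 rows, with probes of a gene averaged and p-values adjusted over all rows by the Benjamini-Hochberg method at a threshold of 0.05. It called 0 of the 47 genes, against a background of 1 row in all, or 0.0045%. At an unadjusted p under 0.05 it listed 1 of the 47, Psmb9, where 1011 rows or 4.55% of the table lay at that level, 2.66% of the table in the lower direction. The lowest adjusted p among the 47 was 0.884. The means were lower in the knockouts for 28 genes and higher for 19, with a median difference of -0.0067 on the log10 scale, and -0.0023 with 27 genes lower when knockout liver 2 was left out. Over all rows 42.8% were lower, and the median difference was 0.00558. Differences ran from -0.167 for Psmc6 to 0.0554 for Psmd3. The knockout values lay wholly below the wild types for 1 gene, Psmb9, and wholly above for 0, where 5.27% of all rows did not overlap, 2.56% in the lower direction.

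One array stood apart before any comparison. Knockout liver 2 had an SD over all probes of 0.0975, against 0.0466 to 0.0676 on the other 6. Over the 47 proteasome genes its SD was 0.122, against 0.0404 to 0.0548 elsewhere. Differences of the genes described one by one are therefore also given without this liver where they shrink or grow by over 1.5 times. The probe of C3ar1 read -0.0031 ± 0.0319 for wild type and 0.0298 ± 0.0238 for knockout (SD, n = 4 and 3), a difference of 0.0329 ± 0.0232 (SE; limma, adjusted p = 0.884). It was not lower in the knockouts, and whether it lies in the deleted part is not known, so it does not check the labels. The genotype of the mice thus rests on the labels alone. The 1 row called over the whole table was A2ml1, which is no proteasome gene.

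**Figure D1:**
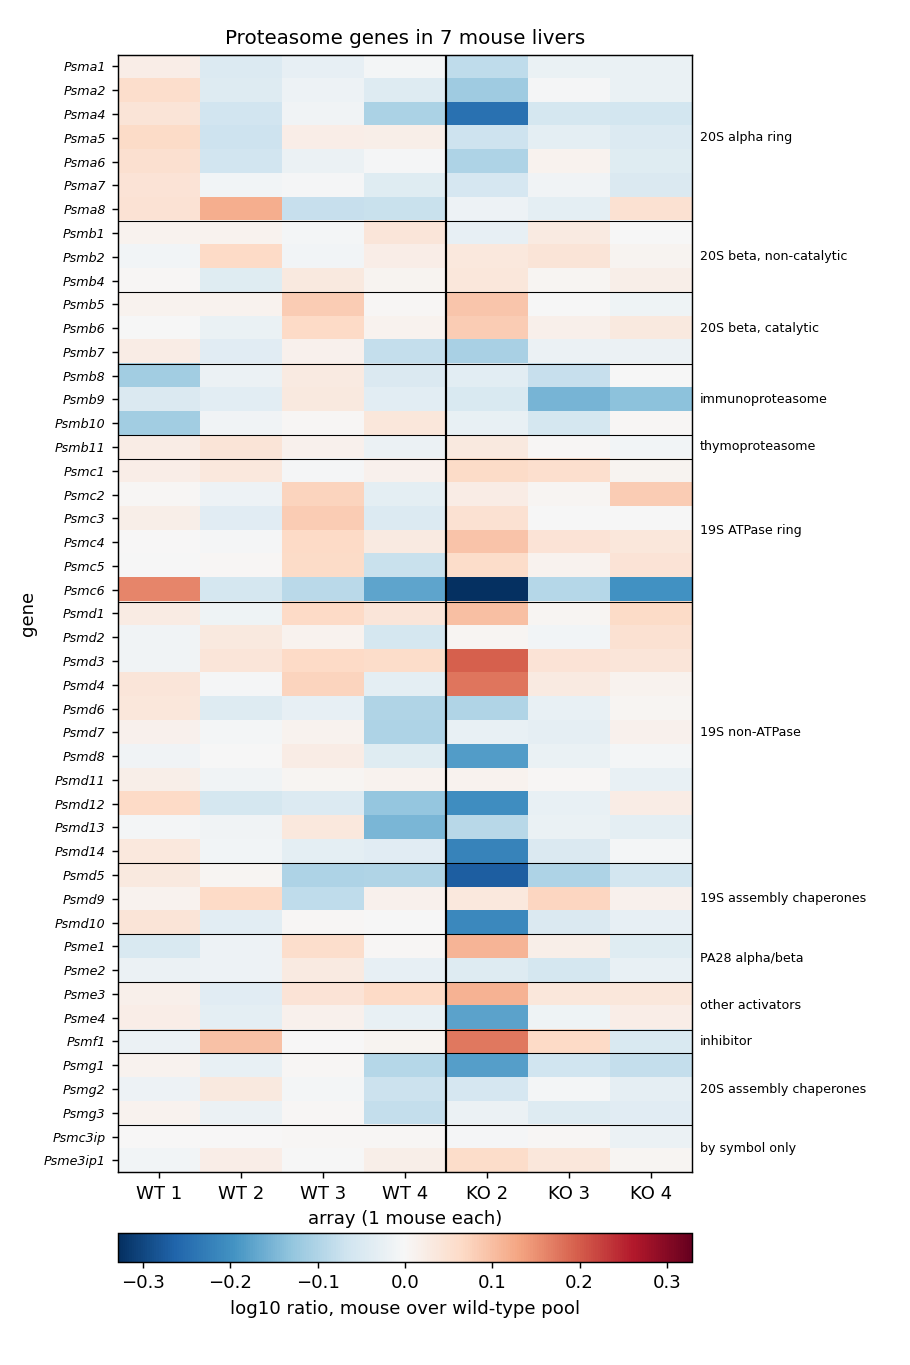
Heat map of the log10 ratio of each mouse over the wild-type pool for all 47 genes (rows, ordered by role) on 7 arrays (columns, wild types left of the line, knockouts right of it). Red is above the pool and blue below; the column of knockout liver 2 holds the strongest colours of both kinds, from -0.328 for Psmc6 to 0.196 for Psmd3.

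The 3 immunoproteasome subunits did not read as a unit in the knockouts. Psmb9, which replaces the beta1 subunit, read -0.0479, -0.0337, 0.0329 and -0.0354 in wild-type livers 1 to 4. In knockout livers 2, 3 and 4 it read -0.0506, -0.154 and -0.135. All knockouts lay below all wild types, although liver 2 did so by only 0.0027. The means were -0.113 ± 0.0549 and -0.0210 ± 0.0365 (SD, n = 3 and 4), a difference of -0.0921 ± 0.0314 (SE), or 1.24-fold lower in base 10. Its 95% interval ran from 1.04-fold to 1.46-fold before adjustment, and Psmb9 did not pass (limma, unadjusted p = 0.0201, adjusted p = 0.884). Without knockout liver 2 the difference was -0.123 (limma, adjusted p = 1.00).

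Psmb8, at the beta5 site, read -0.114, -0.0202, 0.0297 and -0.0476 in wild-type livers 1 to 4. It read -0.0356, -0.0759 and -0.0009 in the knockouts. The knockout values all lay inside the wild-type range, and the difference was 0.000583 ± 0.0355 (SE), with a 95% interval from -0.0820 to 0.0832, and -0.00035 without knockout liver 2. Psmb10, at the beta2 site, read -0.114, -0.0106, 0.0047 and 0.0365 in the wild types and -0.0252, -0.0589 and 0.0038 in the knockouts. The groups again overlapped, and the difference was -0.00602 ± 0.0366 (SE), with an interval from -0.0912 to 0.0791. Neither passed (limma, adjusted p = 0.997 and 0.976). Whether Psmb9 differed more than Psmb8 or Psmb10 was not tested.

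Among the wild types the 3 genes had the same extremes more than once. Wild-type liver 1 held the lowest wild-type value of all 3, and liver 3 the highest of Psmb8 and Psmb9. Their mean ran from -0.0919 in liver 1 to 0.0224 in liver 3 within the wild types, and from -0.0961 to -0.0371 within the knockouts. In bulk liver RNA, fewer cells that carry these genes and less RNA per cell cannot be told apart.

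The constitutive catalytic subunits overlapped between the genotypes. Psmb6, the beta1 subunit, read -0.0015, -0.0229, 0.0648 and 0.0115 in wild-type livers 1 to 4 and 0.0833, 0.0161 and 0.0308 in the knockouts. Its difference was 0.0304 ± 0.0270 (SE), the opposite sign to Psmb9, and 0.0105 without knockout liver 2. Psmb7, the beta2 subunit, read 0.0248, -0.0366, 0.0129 and -0.0777 in the wild types and -0.108, -0.0189 and -0.0196 in the knockouts. Knockout liver 2 was its lowest array, and the difference of -0.0296 ± 0.0336 (SE) was -0.0001 without it. Psmb5, the beta5 subunit, read 0.0103, 0.0108, 0.0830 and 0.0046 in the wild types and 0.0920, -0.0012 and -0.0132 in the knockouts. Wild-type liver 3 and knockout liver 2 were high and the other 5 lay within 0.0132 of the pool. Its difference was -0.00131 ± 0.0324 (SE), and -0.0344 without knockout liver 2. None of the 3 passed (limma, adjusted p = 0.884 for Psmb6, 0.887 for Psmb7 and 0.995 for Psmb5).

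Set against its constitutive partner within each array, Psmb9 gave a narrow picture. Psmb9 minus Psmb6 was -0.0464, -0.0108, -0.0319 and -0.0469 in wild-type livers 1 to 4. It was -0.134, -0.170 and -0.166 in knockout livers 2 to 4, below every wild type. The means were -0.157 ± 0.0197 and -0.0340 ± 0.0170 (SD, n = 3 and 4), a difference of -0.123. This is a description with no test, formed from 2 genes after their values were known. At the beta2 site, Psmb10 minus Psmb7 was -0.0016 ± 0.105 for wild type and 0.0220 ± 0.0613 for knockout. At beta5, Psmb8 minus Psmb5 was -0.0652 ± 0.0408 and -0.0633 ± 0.0706. Both of these overlapped between the genotypes. Averaged over the 3 sites, immunoproteasome minus constitutive was -0.0336 ± 0.0487 for wild type and -0.0660 ± 0.0263 for knockout, a difference of -0.0323 that lay within the wild-type spread.

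**Figure D2:**
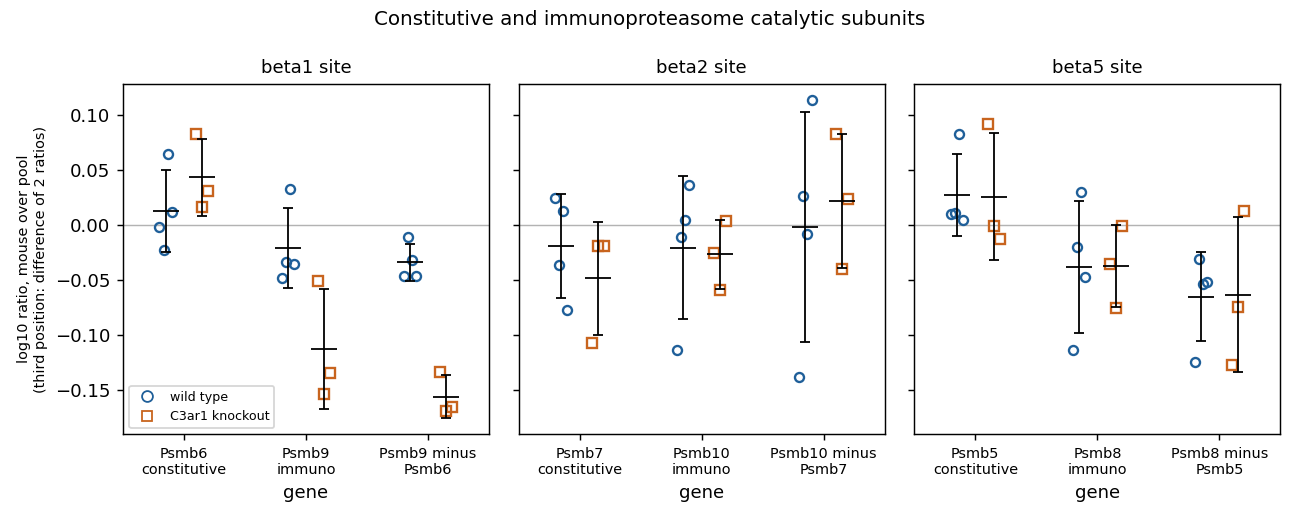
Log10 ratio over the pool (vertical axis) of the constitutive and immunoproteasome subunit of each catalytic site and of their difference within the array, for 4 wild-type livers (circles) and 3 knockout livers (squares); black marks are the mean ± SD. At beta1 the difference lies between -0.170 and -0.134 in the knockouts and between -0.0469 and -0.0108 in the wild types, while the groups overlap at beta2 and beta5.

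Tap1, whose start lies 225 bases from that of Psmb9, was measured too. It read -0.0568, -0.0076, 0.0250 and -0.109 in wild-type livers 1 to 4 and -0.0555, -0.0665 and -0.0260 in the knockouts. The genotypes overlapped, and its difference was -0.0122 (limma, adjusted p = 0.946), against -0.0921 for Psmb9. Of 10 measured genes of MHC class I antigen processing, 6 had a lower and 4 a higher mean in the knockouts, and 0 passed. Their median difference was -0.00909, while the difference of their mean was 0.00747, of the opposite sign. Of 18 measured interferon response genes, 13 were lower, 0 passed and 3 lay at an unadjusted p under 0.05, all lower, with a median difference of -0.0472. Over all rows 42.8% were lower, and 2.66% were lower at that p. Ifit3, an interferon-induced antiviral gene, had all knockouts below all wild types, as had 2.56% of all rows. Its difference was -0.0972 (limma, unadjusted p = 0.0193, adjusted p = 0.884). The difference of the list's mean was -0.0403, and -0.00631 without knockout liver 3.

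Markers of other cells that carry the immunoproteasome were read beside these values. The mean of 11 macrophage and Kupffer cell markers ran from -0.232 to -0.0713 in the wild types and from -0.171 to 0.119 in the knockouts, and 11 of 11 had a higher mean in the knockouts. The mean of 13 lymphocyte markers ran from -0.0400 to 0.0174 and from -0.0421 to 0.0169, with 11 of 13 higher. Neutrophil markers ran from -0.0516 to -0.0283 and from -0.0769 to 0.0615, with 4 of 6 higher. Endothelial markers were higher in 9 of 11, stellate cell markers in 7 of 9, bile duct markers in 3 of 5 and hepatocyte markers in 9 of 10. Over all rows 42.8% were lower. None of these genes passed. Knockout liver 4 was the highest knockout in all 3 leucocyte lists. Without it the differences of their means turned from 0.0784 to -0.00877 for macrophages and from 0.00708 to -0.00673 for lymphocytes. For neutrophils that difference turned from 0.0079 to -0.0372. Higher were then 4 of 11 macrophage, 5 of 13 lymphocyte and 3 of 6 neutrophil markers. Of the others, 7 of 11 endothelial, 6 of 9 stellate cell, 3 of 5 bile duct and 7 of 10 hepatocyte markers were higher. Klrb1c, a natural killer cell receptor, had all knockouts below all wild types, with a difference of -0.157 (limma, unadjusted p = 0.0014, adjusted p = 0.884). Nkg7, Gzma and Ccl5 of that list overlapped between the genotypes and differed by 0.00152, 0.0307 and 0.0122, in the higher direction. In the same list Cd4 and Cd3e had all knockouts above all wild types. Their differences were 0.110 and 0.0641 (limma, unadjusted p = 0.0101 and 0.0307, adjusted p = 0.884 each). All knockouts were also higher for the neutrophil marker Elane and the endothelial markers Vwf, Stab1 and Egfl7. Over all rows 5.27% did not overlap, 2.56% in the lower direction. The part of the cells behind these markers in the value of Psmb9 was not tested.

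The interferon-inducible PA28 activator, a ring of Psme1 and Psme2 that opens the barrel, showed no common direction. Psme1 read -0.0509, -0.0162, 0.0568 and 0.0031 in wild-type livers 1 to 4 and 0.111, 0.0203 and -0.0410 in the knockouts. Its difference was 0.0318 ± 0.0397 (SE), and it turned to -0.00855 without knockout liver 2. Psme2 read -0.02005, -0.0167, 0.0304 and -0.02615 in the wild types and -0.04285, -0.05725 and -0.0243 in the knockouts, as the mean of its 2 probes. Liver 3 alone stood high, and the difference was -0.0333 ± 0.0204 (SE). Neither passed (limma, adjusted p = 0.892 and 0.884). Psme2 has a near-identical copy, Psme2b, so its probes may read both.

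The other activators and the inhibitor differed by less, or in the opposite direction, when knockout liver 2 was left out. Psme3, the nuclear PA28 gamma activator, read 0.0164, -0.0364, 0.0447 and 0.0661 in wild-type livers 1 to 4 and 0.115, 0.0362 and 0.0374 in the knockouts. Its difference was 0.0402 ± 0.0314 (SE), and 0.0141 without liver 2. Psme4, the PA200 activator, differed by -0.0514, and by 0.0086 without that liver. Psmf1, the inhibitor PI31, differed by 0.0419, and by -0.0135 without it. Psmb11, the catalytic subunit of the thymus, was within 0.0419 of the pool on every array.

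The alpha ring had a lower mean in the knockouts in 7 of 7 measured genes, though no member passed or lay at an unadjusted p under 0.05. Differences ran from -0.00348 for Psma8 to -0.0864 for Psma4, with a median of -0.0359. Without knockout liver 2, Psma4 differed by -0.0243 and Psma8 by 0.00543, of the opposite sign. The mean of the ring was 0.0468, -0.0249, -0.0187 and -0.0353 in wild-type livers 1 to 4 and -0.0976, -0.0208 and -0.0266 in the knockouts. The groups overlapped, and the outer arrays were wild-type liver 1 and knockout liver 2. Without knockout liver 2 the median difference was -0.00740, with 6 of 7 genes lower.

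The 6 alpha genes other than Psma8 shared their extreme arrays. Wild-type liver 1 was the highest array for 6 of 6, and knockout liver 2 the lowest for 5 of 6. Psma8, a subunit known from germ cells, had other extremes, with wild-type liver 2 highest and liver 3 lowest. Psma5 was the alpha gene of smallest p and the one whose lowest array was not knockout liver 2. It read 0.0626, -0.0690, 0.0229 and 0.0204 in the wild types and -0.0674, -0.0331 and -0.0452 in the knockouts. Wild-type liver 2 lay below all knockouts, and the difference was -0.0578 ± 0.0313 (SE; limma, adjusted p = 0.884).

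Non-catalytic beta subunits varied less. The mean of Psmb1, Psmb2 and Psmb4 stayed between 0.00253 and 0.0255 on all 7 arrays. Psmb1 has 2 probes, which differed by 0.109 on knockout liver 2 and gave differences of opposite sign between the genotypes, -0.0348 and 0.00641. The probes of the other genes with a pair, Psma2, Psmd9 and Psme2, lay within 0.0368 of each other on every array.

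Chaperones that help build the 20S barrel had a lower mean in the knockouts in 3 of 3 measured genes. Psmg1, which guides assembly of the alpha ring together with Psmg2, read 0.0123, -0.0249, 0.0040 and -0.0940 in wild-type livers 1 to 4. It read -0.182, -0.0646 and -0.0794 in the knockouts. Wild-type liver 4 lay among the knockouts, so the groups overlapped. The difference was -0.0829 ± 0.0371 (SE; limma, unadjusted p = 0.0576, adjusted p = 0.884), and -0.0464 without knockout liver 2. Psmg2 and Psmg3 differed by -0.0156 and -0.0124, and by -0.0033 and -0.0187 without that liver. The mean of the 3 was -0.0813 in wild-type liver 4 and between -0.0047 and 0.00263 in the other wild types.

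The ATPase ring of the 19S cap held both signs. Psmc6 had the widest range of all 47 genes, 0.489 from array to array. It read 0.160, -0.0577, -0.0890 and -0.172 in wild-type livers 1 to 4 and -0.328, -0.0932 and -0.198 in the knockouts. Wild-type liver 1 was the sole array above the pool. The difference of -0.167 ± 0.0834 (SE), or 1.47-fold in base 10, did not pass (limma, adjusted p = 0.884), and was -0.106 without knockout liver 2.

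The other 5 ATPase genes had higher means in the knockouts, between 0.0108 for Psmc3 and 0.0406 for Psmc5. Psmc4 read 0.0023, -0.0032, 0.0655 and 0.0301 in wild-type livers 1 to 4 and 0.0932, 0.0461 and 0.0381 in the knockouts. Psmc5 read -0.0022, 0.0041, 0.0636 and -0.0724, against 0.0607, 0.0105 and 0.0455. Psmc1 read 0.0218, 0.0346, -0.0029 and 0.0142, against 0.0632, 0.0557 and 0.0079. In all of these, at least 1 knockout lay inside the wild-type range. Their differences were 0.0355 ± 0.0241, 0.0406 ± 0.0321 and 0.0253 ± 0.0203 (SE), with an adjusted p of 0.884 each (limma). Without knockout liver 2 that of Psmc4 was 0.0184, that of Psmc1 was 0.0149, and Psmc3 turned to -0.00577.

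Among 11 non-ATPase subunits of the cap, 6 had a lower and 5 a higher mean in the knockouts. Without knockout liver 2 only 3 of the 11 were lower. Psmd14, which cuts ubiquitin chains off the substrate, read 0.0353, -0.0094, -0.0330 and -0.0375 in wild-type livers 1 to 4 and -0.220, -0.0480 and -0.0066 in the knockouts. Its difference was -0.0804 ± 0.0494 (SE), and -0.0162 without that liver. Psmd3, a scaffold of the cap, read -0.0113, 0.0401, 0.0657 and 0.0600 in the wild types and 0.196, 0.0458 and 0.0404 in the knockouts. Its difference was 0.0554 ± 0.0412 (SE), and 0.00448 without that liver. Psmd4, a ubiquitin receptor, likewise went from 0.0534 to 0.00242. For these 3 genes the difference was thus much smaller without 1 mouse.

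Of the cap's own assembly chaperones, 2 of 3 had a lower mean, by less when knockout liver 2 was left out. Psmd5 read 0.0323, 0.0056, -0.102 and -0.0993 in wild-type livers 1 to 4 and -0.270, -0.102 and -0.0608 in the knockouts. Psmd10, also known as gankyrin, read 0.0418, -0.0347, 0.0029 and -0.0017, against -0.212, -0.0469 and -0.0262. Knockout liver 2 was the lowest array for both. The differences were -0.103 ± 0.0568 and -0.0972 ± 0.0451 (SE), and without that liver -0.0404 and -0.0386. Psmd9, the remaining one, had a higher mean, by 0.0374, and by 0.0403 without that liver. None of the 3 passed (limma, adjusted p = 0.884 each).

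**Figure D3:**
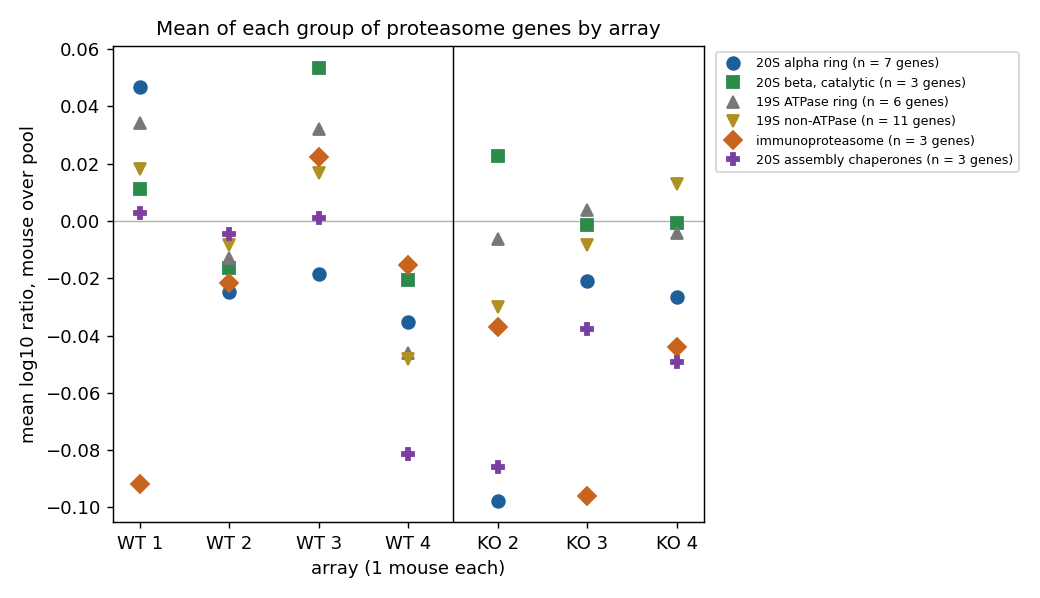
Mean log10 ratio over the pool (vertical axis) of 6 groups of proteasome genes on each array (horizontal axis, wild types left of the line, knockouts right of it). In wild-type liver 1 the alpha ring stands at 0.0468 and the immunoproteasome at -0.0919, while in knockout liver 2 the alpha ring has the lowest value of the 6 plotted groups, at -0.0976.

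Values of the 47 genes were spread within each liver. Outside knockout liver 2 their SD was 0.0404 to 0.0548, on each array below the SD over all probes, 0.0466 to 0.0676. Whether their spread goes beyond that of the measurement was not tested. In knockout liver 2 the lowest and highest of the 47 genes, Psmc6 and Psmd3, were 3.34-fold apart in base 10, against 1.53-fold to 1.91-fold between the outermost genes of each other array. That liver held 17 of 47 genes more than 0.1 from the pool, 12 below and 5 above. Over all rows the share beyond 0.1 there was 20.8%, and for the proteasome genes it was 36.2%. On the other 6 arrays 1 to 5 of the 47 lay beyond 0.1, or 2.13% to 10.6%, against 3.46% to 8.32% of all rows.

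The arrays that held the extremes were unevenly shared. Wild-type liver 1 was the highest array for 17 of the 47, or 36.2%, against 14.3% of all rows. Knockout liver 2 was the lowest for 15, or 31.9%, against 18.6%, and wild-type liver 4 for 11, or 23.4%, against 9.62%. That knockout liver was also the highest array for 12, or 25.5%, against 29.1% of all rows. Below the pool lay 15 of the 47 in wild-type liver 1, 32 in liver 2, 17 in liver 3 and 29 in liver 4, and 27 in each knockout. As shares these were 31.9%, 68.1%, 36.2% and 61.7%, and 57.4% in each knockout. Of all rows, 47.7%, 50.8%, 41.7% and 42.9% lay below it in wild-type livers 1 to 4, and 41.3% to 43.9% in the knockouts. The median SD over the 4 wild types was 0.0423 for the proteasome genes and 0.0330 over all rows.

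**Figure D4:**
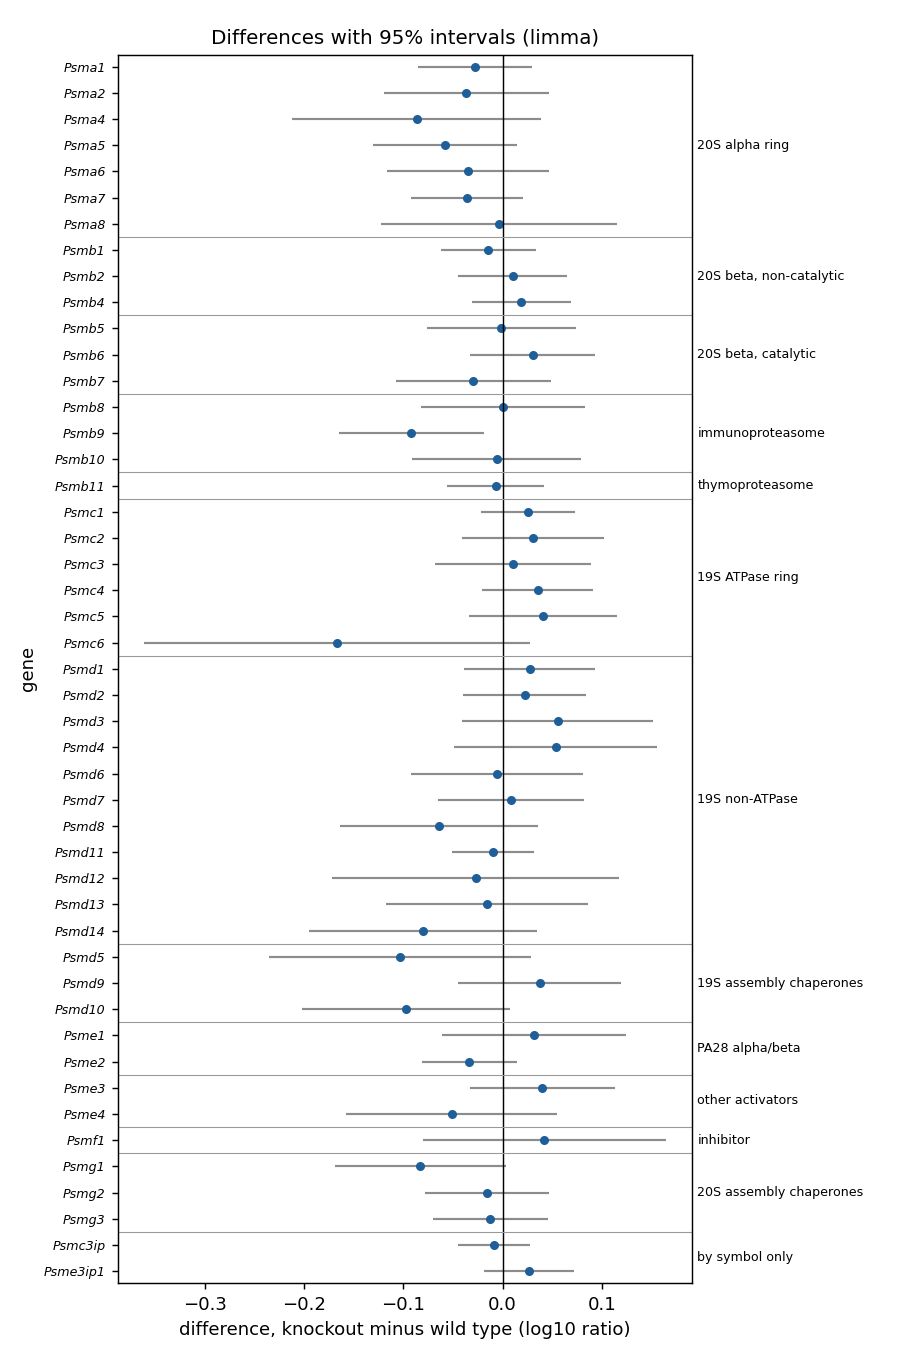
Difference between knockout and wild-type means on the log10 scale (horizontal axis) for the 47 genes, ordered by role, with points for the estimates and bars for 95% intervals of the limma fit before adjustment. The interval of Psmb9 alone leaves out 0, and the widest is that of Psmc6, from -0.361 to 0.0272.

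Genes that work with the proteasome but fall outside the symbol rule gave the same outcome. Of 16 measured partners, among them ubiquitin receptors, deubiquitinases and the assembly factor Pomp, 12 had a lower and 4 a higher mean in the knockouts, and 0 passed. Over all rows 42.8% were lower. Without knockout liver 2, 10 of the 16 were lower, and the difference of the list's mean went from -0.0325 to -0.0134. Zfand5, an activator of the 26S form, and Ecpas, which anchors the proteasome, differed by -0.147 and -0.0977, and by -0.0719 and -0.0258 without knockout liver 2. Zfand2a, a stress-induced partner of the cap, differed by -0.103, with all knockouts below all wild types, as in 2.56% of all rows. Ubqln2, a ubiquitin shuttle, differed by 0.0441, in the higher direction. Of 3 measured E1 enzyme genes, which activate ubiquitin or its relatives, 2 were lower, led by Uba3 at -0.102, or -0.0475 without that liver. The lowest array was knockout liver 2 for Zfand5, Ecpas and Uba3, and knockout liver 4 for Zfand2a.

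Of 6 measured regulators of proteasome genes, 2 were lower and 4 higher, and 0 passed. Nfe2l1, the factor that raises proteasome genes when the complex is inhibited, differed by 0.0150, and by 0.0003 without knockout liver 2. Ngly1, the enzyme that activates Nfe2l1 by removing its sugars, read 0.0827, -0.0657, -0.0420 and -0.0757 in wild-type livers 1 to 4 and -0.309, -0.106 and -0.106 in the knockouts. Nfe2l2 read -0.0171, -0.0460, 0.0732 and 0.0121, against -0.163, -0.0557 and -0.0466. Over all rows 2.56% had all knockouts below all wild types. Ngly1 and Nfe2l2 both did, Nfe2l2 by 0.0006. Their differences were -0.149 and -0.0940 (limma, unadjusted p = 0.0390 and 0.0407, adjusted p = 0.884 each), and -0.0808 and -0.0567 without knockout liver 2.

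The 2 genes that match only by symbol were close to the pool. Psmc3ip, a recombination factor, stayed within 0.0205 of it on every array. Psme3ip1, a partner of PA28 gamma, read -0.0089, 0.0223, -0.0021 and 0.0189 in wild-type livers 1 to 4 and 0.0602, 0.0360 and 0.0063 in the knockouts, a difference of 0.0266 ± 0.0196 (SE; limma, adjusted p = 0.884), and 0.0136 without knockout liver 2.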

How the data were processed

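The authors deposited 1 log ratio per probe and array, read here as log10 ratios. Per the labels' protocols, RNA came from spin columns and was labelled with an aminoallyl amplification kit, Cy3 in channel 1 and Cy5 in the other. The design text says that a dye swap was used. Scanner, background correction and normalization are not given in the sources used here, and the number of arrays limits the precision. Probes took their gene from the platform annotation. Of these, 17724 were renamed through Entrez numbers, 21 through accessions (RefSeq, GRCm38.p6), and 79 kept the old symbol; 50 probes had several genes and 5700 none. Probes of a gene were averaged, and limma 3.58.1 (R 4.3.3; lmFit, eBayes), tested on simulated data, compared knockout with wild type, two-sided. In the simulated data it called 8% of changes of 0.1 on the log10 scale and 76% of changes of 0.2. Those data also held 50 rows changed by 0.4 and 50 by 0.8. Such rows loosen the Benjamini-Hochberg cutoff, whereas the livers gave 1 called row, A2ml1, at -0.827. In the livers Cxcl10, at a difference of -0.241, had an adjusted p of 0.884 (limma). The simulated shares can therefore be too high for the livers. Most changes of 0.1 would thus be missed, and what share of changes of 0.2 would be found in the livers was not tested. The labels call the samples separate mice. No pair of arrays shared over 0.119% of values, and the lowest correlation between arrays was -0.250.

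Values per mouse were printed for the catalytic and PA28 subunits, for genes past the threshold or without overlap, and for up to 6 others per direction by p, with up to 3 examples of a role. Context lists gave up to 4 genes of smallest p; Nfe2l1 and Tap1 were added after their values were seen. The genes and lists were chosen with earlier results of these data known. Alternatives were 3 scalings, other spread models, single probes, a filter on variation, a replicate block and each mouse left out. The match of 1 promoter motif is not reported here.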

Additional observations from a re-analysis of the deposited data

Results flagged for a closer look

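Within the 4 wild types, 78 genes and group means were searched for 1 mouse far from the other 3 (by Dixon's 95% critical value for the gap over the range), which chance alone gives in about 1 of 20 groups, and 4 were found. Psmb5 read 0.0830 in wild-type liver 3 and 0.0046 to 0.0108 in the others. Psme2 read 0.0304 in wild-type liver 3 and -0.02615 to -0.0167 in the others. The mean of the activators Psme3 and Psme4 was -0.0341 in wild-type liver 2 and 0.0195 to 0.0295 in the others. The mean of the 20S assembly chaperones was -0.0813 in wild-type liver 4 and -0.0047 to 0.00263 in the others.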

How the results depend on the processing

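Under all 17 alternatives 0 proteasome genes were called, with an unadjusted p under 0.05 in 0 to 3 of them. The count of rows called over the table was 1 as reported, 0 with scale normalization, a trend, the ordinary test or the replicate block, 4 without the less variable rows, and 0 to 3 with 1 mouse left out. Of 336 values of 20 named genes under the alternatives, 320 kept their sign and 0 were called, the lowest adjusted p being 0.630. The trend, the robust fit, the ordinary test and the filter leave the difference itself unchanged, so its sign could not turn there. The same holds for single probes where a gene has 1 probe. The block repeats the difference found without wild-type liver 1. The count of kept signs therefore overstates how stable they are. Psmb8 turned to -0.0042 with median centring, -0.0167 with array weights and -0.0248 with the block, and ranged from -0.0248 to 0.0232 with 1 mouse left out. Psmb10 turned to 0.00336 and 0.00553 with quantile and scale normalization, and ranged from -0.0370 to 0.0131 with 1 mouse left out. Psmb5 ranged from -0.0344 to 0.0182 and Psme1 from -0.00855 to 0.0672. Psmb9 ranged from -0.123 to -0.0718 over all alternatives, and Psmb9 minus Psmb6 from -0.134 to -0.105. The count of lower genes was 25 to 30 of 47, with a median difference from -0.0183 to -0.0023, and 6 or 7 of 7 in the alpha ring, all chosen after seeing the data. Immunoproteasome minus constitutive ranged from -0.0555 to -0.0176. Psmb10 minus Psmb7 ranged from -0.0220 to 0.0622 and Psmb8 minus Psmb5 from -0.0359 to 0.0340. The replicate block used the 6 arrays of numbers 2 to 4. Same-numbered mice deviated from their group means with correlations of -0.131, -0.207 and -0.150 over rows. For mice of different numbers they ran from -0.294 to 0.323. That range holds the same-numbered values, so this check cannot decide whether a number marks a pair. The numbers were not read as pairs because the labels do not say that they are. The filter on variation kept 32 of 47 genes. The cause of the changes was not tested.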
